A study of Mus musculus with 4 samples.

Results

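Oligodendrocyte precursor cells (OPCs) of the adult mouse hypothalamus were examined by single-nucleus RNA sequencing in wild-type mice and in TRα1+m mice. The cells were taken as every nucleus that the deposited annotation places in the main cluster OPC, which gave 2110 of 56386 annotated nuclei. Hypothalamus came from adult male mice on the C57/BL6NCr background, either wild type (WT) or TRα1+m, which are heterozygous for a point mutation in thyroid hormone receptor α1 that lowers its affinity for thyroid hormone. The mutant allele is in the germline, so the comparison is between whole animals and not between OPCs that alone carry the mutation. Nuclei from 3 mice of a genotype were pooled into each library, and each of the experimental repeats 1 and 2 gave a library of both genotypes, so there were 2 libraries per genotype and no value for a single mouse. The labels name no treatment, and all groups share the background, the sex and the snap-freezing of the tissue.

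OPCs are the dividing glial progenitors of the brain and spinal cord, present throughout adult life. They respond to platelet-derived growth factor through the receptor PDGFRα, carry the NG2 proteoglycan encoded by Cspg4, receive synaptic input from neurons, and differentiate through a committed stage marked by the receptor Gpr17 into myelinating oligodendrocytes. Thyroid hormone is a classical timing signal for their exit from division and their differentiation. Thyroid hormone receptors bind DNA with or without hormone, and unliganded receptors tend to hold target genes down.

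The OPC cluster held 531 and 422 nuclei in WT libraries 1 and 2, and 679 and 478 nuclei in TRα1+m libraries 1 and 2. The unique molecular identifiers (UMIs, each standing for 1 captured transcript) of these nuclei summed to 1353384, 1321489, 1616000 and 1314390 in the same order. A median OPC nucleus held 2376 and 2984 UMIs in WT, and 2221 and 2594 in TRα1+m. Repeat 2 was therefore the deeper in both genotypes. Between 44 and 64 cell barcodes occurred in both libraries of a pair, and 0 of them belonged to an OPC in both. Values below are counts scaled to the same total of UMIs in the OPCs of each library (CPM), listed as WT 1, WT 2, TRα1+m 1 and TRα1+m 2.

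Both defining markers were highest in the OPC cluster. Pdgfra stood at 646, 930, 645 and 1104 CPM, and its mean was 17.5 times that of the next cluster, the microglia and macrophages, with a range over libraries of 10.1 to 31.0 times. Cspg4 stood at 194, 387, 186 and 422 CPM, 11.1 times the next cluster. A UMI of either gene was found in 1822 of 2110 nuclei (86.4%), by library in 83.8%, 93.1%, 79.1% and 93.5%, so the share was higher in the deeper repeat. Of 3932 genes at 50 CPM or more in OPCs, 44 were at least 5 times their level in neurons (Neurons_1), oligodendrocytes, astrocytes, and microglia and macrophages. The clusters Neurons_2 and Non-neuronal cells, which hold few nuclei in most libraries, were left out of these ratios. Neurons_2 held 5, 1 and 6 nuclei in WT 1, WT 2 and TRα1+m 1, but 852 nuclei in TRα1+m 2 (7.11% of its annotated nuclei). Emid1, which encodes a secreted EMI-domain protein, had 58.2 times (36.3 to 77.3 over libraries), Susd5 53.7 times (10.9 to 126), the sulfotransferase Chst5 44.3 times (23.2 to 45.2) and Gpr17 38.2 times (13.5 to 99.2). The order of these genes changed with the library, and Susd5 exceeded Emid1 in both libraries of repeat 2. The complement-like synaptic ligand C1ql1 (21.8), the guidance cue Sema3d (21.4), the proteoglycan core protein Vcan (16.9) and the adhesion protein Megf11 (12.3) were also among the 15 highest ratios. With those 2 clusters included, Susd5 had 53.7 times, Emid1 44.8 times and Gpr17 14.4 times. These ratios are descriptions, because the same genes entered the clustering.

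**Figure D1:**
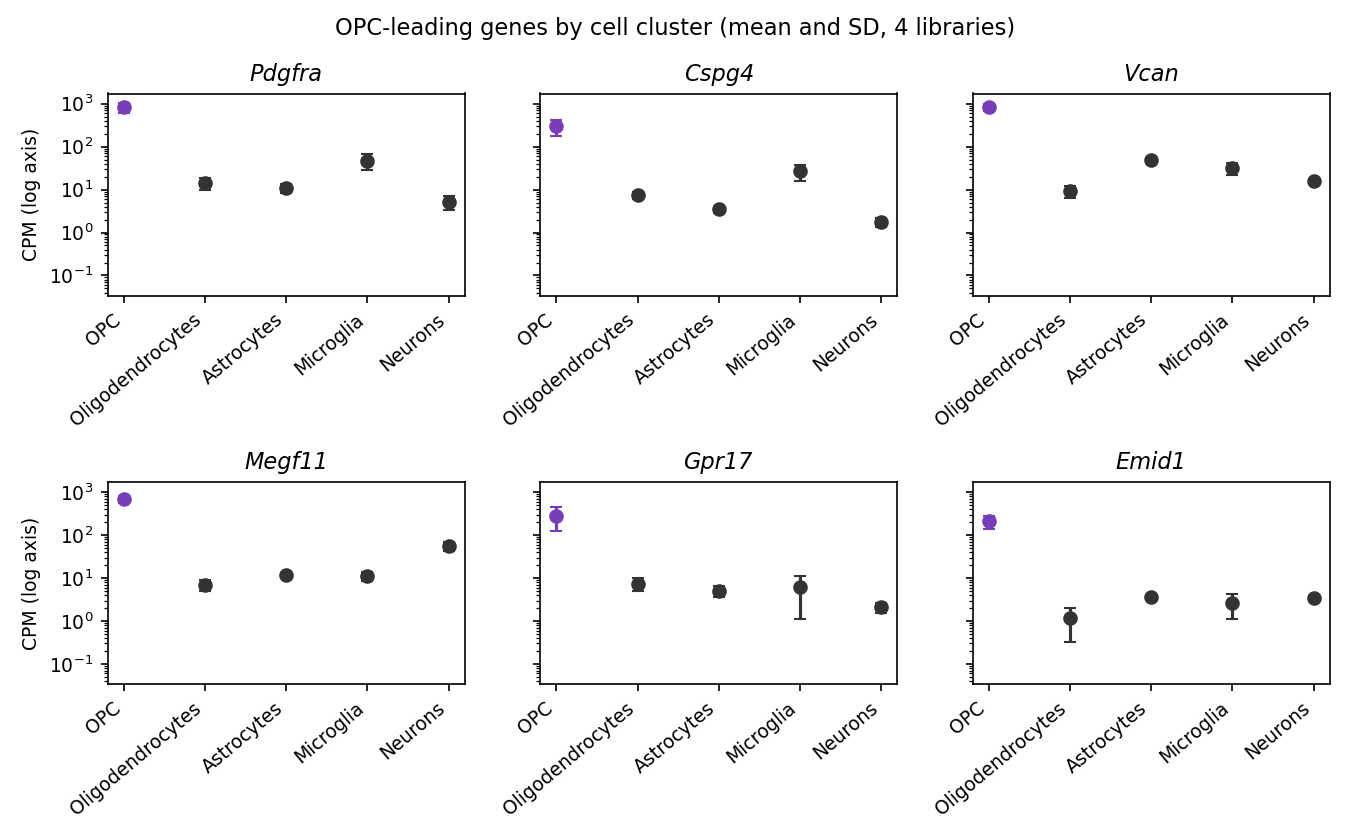
Levels of 6 genes (CPM, log axis; mean ± SD of 4 libraries) in OPCs and in 4 other main clusters. Pdgfra, Cspg4, Vcan, Megf11, Gpr17 and Emid1 are each highest in OPCs.

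Transcripts of other cell types were present in OPC nuclei. The 9 neuronal marker genes summed to 1371, 1651, 1507 and 1487 CPM, of which the non-coding RNA Snhg11 was the most abundant (mean 487 CPM). Neuropeptide transcripts, which OPCs are not known to make, summed to 2153, 1332, 1948 and 819 CPM and were led by Pmch, the precursor of melanin-concentrating hormone (491 CPM). The 8 astrocyte markers summed to 985, 993, 1285 and 932 CPM, led by the glutamate transporter Slc1a2 (569 CPM). Microglial markers summed to 123 to 141 CPM, tanycyte markers to 594 to 783 CPM (led by Nnat, 607 CPM), endothelial markers to 17.5 to 32.8 CPM (led by Ly6c1, 5.11 CPM) and mural and leptomeningeal markers to 9.89 to 41.5 CPM (led by Rgs5, 5.07 CPM). Nuclei with UMIs of at least 3 of 7 mature oligodendrocyte markers numbered 22, 16, 17 and 18, or 73 of 2110. Those with at least 3 of 6 astrocyte markers numbered 11, 11, 47 and 8, so TRα1+m library 1 held the most. UMIs of at least 3 of the 9 neuronal markers were found in 253, 266, 314 and 250 nuclei, or 1083 of 2110 (51.3%), so neuronal transcripts were spread over many OPC nuclei, and their part in the results below was not tested.

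Promoter sequence is shown for 4 genes of the genotype comparison: Ninj2 had the smallest p, Hmga2 had the largest fold change among genes higher in TRα1+m, and Fabp7 and Col23a1 were picked as genes higher in TRα1+m that hold a thyroid hormone receptor half-site. The call of Col23a1 ended when the nucleus richest in it was left out of each library, and Fabp7 was also higher by its values in oligodendrocytes and astrocytes, as given below. The windows run 5′ to 3′ along the gene's strand, from 250 to 51 bases before the transcription start of the RefSeq table (build GRCm38.p6). Capitals mark the half-site AGGTCA on either strand.
Ninj2 (chr6:120093130-120093329, plus strand): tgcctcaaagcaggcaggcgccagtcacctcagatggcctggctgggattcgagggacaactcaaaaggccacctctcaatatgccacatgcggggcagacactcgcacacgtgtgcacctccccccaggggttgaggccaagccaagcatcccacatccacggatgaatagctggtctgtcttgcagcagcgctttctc
Hmga2 (chr10:120476520-120476719, minus strand): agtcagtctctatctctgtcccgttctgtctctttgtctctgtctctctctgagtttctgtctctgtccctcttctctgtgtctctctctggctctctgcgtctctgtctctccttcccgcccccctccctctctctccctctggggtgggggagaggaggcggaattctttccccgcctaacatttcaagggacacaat
Fabp7 (chr10:57784673-57784872, plus strand): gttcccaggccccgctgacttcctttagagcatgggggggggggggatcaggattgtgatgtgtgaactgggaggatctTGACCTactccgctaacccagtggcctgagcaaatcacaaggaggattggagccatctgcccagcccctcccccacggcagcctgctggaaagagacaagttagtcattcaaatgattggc
Col23a1 (chr11:51289670-51289869, plus strand): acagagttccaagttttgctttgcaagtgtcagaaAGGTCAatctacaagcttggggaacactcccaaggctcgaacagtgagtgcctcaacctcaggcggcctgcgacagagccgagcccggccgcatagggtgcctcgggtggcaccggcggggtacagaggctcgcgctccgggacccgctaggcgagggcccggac

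The half-site begins 171 bases before the start in Fabp7 and 215 bases before it in Col23a1, and the Ninj2 and Hmga2 windows hold none. Over the full 250 bases before the start, AGGTCA on either strand was found in 4607 of 32851 RefSeq promoters (14.0%). Of the 64 genes that differed between genotypes with the repeat as a block, described below, 43 had a promoter entry, and 5 of their 58 promoters held it: those of Oxt, Fabp7, A330049N07Rik, Chchd10 and Col23a1. The direct repeat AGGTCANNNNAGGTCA, the arrangement that thyroid hormone receptor heterodimers prefer, was in 5 of 32851 promoters and in 0 of the 58. A match is a description of letters in the window and says nothing of receptor binding, and its absence says only that these letters are not there.

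OPC nuclei differed among themselves far more in some genes than in others. Among 3268 genes at 50 CPM or more in every library, spread between nuclei was measured as the squared coefficient of variation beyond counting error. Genes were ranked by the lowest of their 4 library values. First in rank was 9630013A20Rik, a long non-coding RNA of committed precursors, at 33.4 to 64.2. In WT library 1 its UMIs were found in 52 nuclei, and 1 nucleus held 171 of the 536. Pik3r3 (19.3 in its lowest library), Nkain2 (18.3), 9530059O14Rik (16.4), Frmd4a (14.4), the sodium-calcium exchanger Slc24a2 (14.4), the transcription factor St18 (14.0) and the myelin-associated glycoprotein Mag (13.5) followed. Slc24a2 was far more abundant in oligodendrocytes, at 4737, 4643, 3416 and 3720 CPM, than in OPCs (mean 102 CPM). The part of OPC nuclei with several mature oligodendrocyte markers in this ranking was not tested. Fyn, the kinase that links axonal contact to myelin gene expression, stood at 3.81.

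Gpr17, the receptor of the committed stage, was unevenly spread. The study reported that committed progenitors and newly formed oligodendrocytes were not observed as cell states in its data. The values below describe nuclei within the OPC cluster by their Gpr17 UMIs. A Gpr17 UMI was present in 24.7%, 58.3%, 29.2% and 57.3% of OPC nuclei. With every nucleus thinned to 2000 UMIs, which left out 166, 35, 259 and 98 shallower nuclei, the shares were 21.1%, 49.4%, 23.8% and 48.7%. Repeat 2 was thus far above repeat 1 in both genotypes at matched depth, and the genotypes overlapped. At the same 2000 UMIs the share was 0.536% to 2.62% in oligodendrocytes and 0.309% to 0.593% in neurons, the background for this gene. Before thinning it was 0.779% to 1.79% in oligodendrocytes and 0.616% to 1.14% in neurons, whose median depths were 1493 to 1812 and 3797 to 5227 UMIs. The difference between genotypes in the mean unthinned share was 1.76 percentage points, with an exact two-sided permutation p of 1. With 2 libraries per genotype this test cannot give a p below 0.33.

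Nuclei with 2 or more Gpr17 UMIs were set against nuclei with 0 within each library (31 against 400, 129 against 176, 41 against 481 and 142 against 204 nuclei). The values are descriptions of nuclei that share a library, and the deeper nuclei are more often in the first class. Of 3955 genes at 50 CPM or more, 403 were higher and 462 lower in the Gpr17 class in all 4 libraries. Some genes would go 1 way in all 4 libraries without any difference, and how many was not estimated. Enpp6, a choline phosphodiesterase of newly forming oligodendrocytes, averaged 238 against 37.1 CPM (6.41 times), and Fyn averaged 1014 against 269 CPM (3.77 times). Bcas1, a gene of early myelinating cells, averaged 1079 against 350 CPM (3.09 times). Bmp4, a secreted factor transiently made by committed precursors, averaged 50.5 against 2.12 CPM, although it falls under the limit of 50 CPM in OPCs as a whole. Pdgfra was lower in all 4, at 691 against 849 CPM. Cspg4 stood at 276 against 299 CPM and was lower in 3 of the 4. Other precursor identity genes went both ways. Tnr (4042 against 2343 CPM), Sox6 (2380 against 1935 CPM) and Neu4 (145 against 116 CPM) were higher in all 4. Ptprz1 (2439 against 2741 CPM), Lhfpl3 (4365 against 5049 CPM) and Cspg5 (922 against 1216 CPM) were lower in all 4. The proteoglycan Spock3 (0.444 times), the sulfotransferase Hs6st2 (0.539 times) and the potassium channel Kcnh7 (0.575 times) were among the genes lowest in the Gpr17 class.

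Nuclei with UMIs of 2 or more of 13 cycling genes such as Mki67 and Top2a numbered 5, 3, 5 and 10 (0.942%, 0.711%, 0.736% and 2.09%). TRα1+m library 2 was the highest and the other 3 were alike. In neurons, which do not divide, the unthinned share was 0.147% to 0.283%. No difference between genotypes was shown (exact two-sided permutation p of 0.667), in a test that cannot give a p below 0.33 with 2 libraries per genotype.

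**Figure D2:**
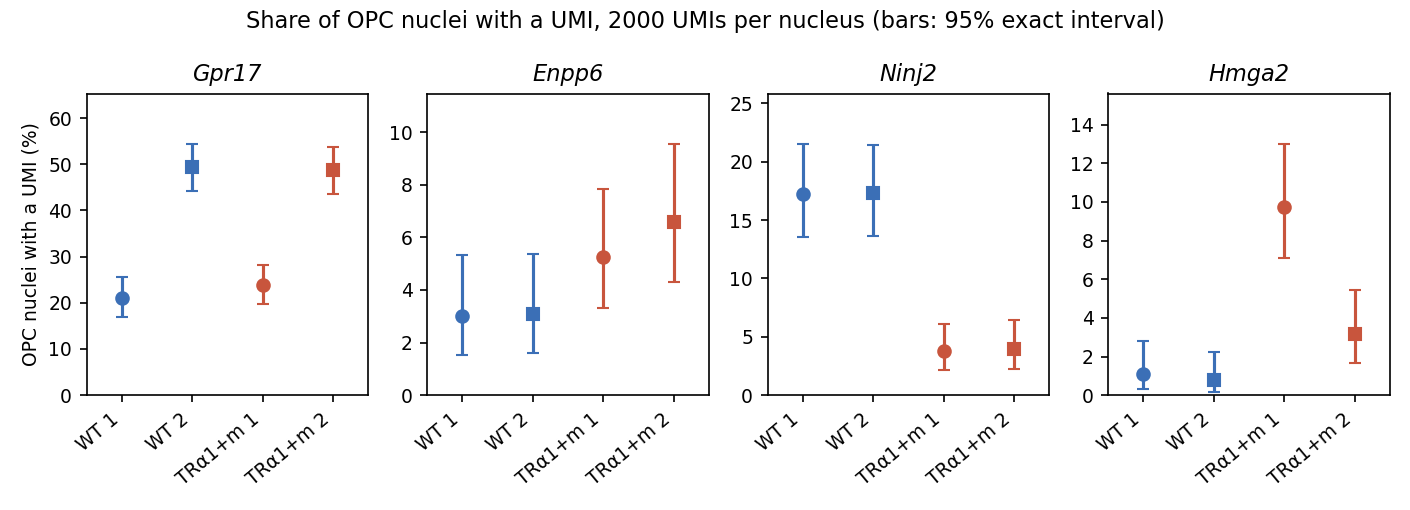
Share of OPC nuclei with a UMI of Gpr17, Enpp6, Ninj2 or Hmga2 (percent, nuclei thinned to 2000 UMIs; bars are 95% exact binomial intervals, which cover counting error only) in each library. Gpr17 separates the repeats, whereas Ninj2 separates the genotypes; Enpp6 and Hmga2 are higher in both TRα1+m libraries, with intervals that partly overlap those of WT.

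OPCs made up 3.62% and 3.17% of the annotated nuclei in WT and 4.13% and 3.99% in TRα1+m. Both TRα1+m libraries were above both WT libraries, but the difference did not pass the test (log2 fold change 0.26, SE 0.11, edgeR adjusted p = 0.41, or 0.927 with the repeat as a block). Counted among OPCs and oligodendrocytes together, OPCs were 24.4% and 23.2% in WT and 28.7% and 25.3% in TRα1+m (log2 fold change 0.18, adjusted p = 0.674). Among all nuclei outside the neuronal clusters they were 10.4%, 9.23%, 11.7% and 11.1% (log2 fold change 0.21, adjusted p = 0.868). The 852 Neurons_2 nuclei of TRα1+m library 2 count in its share of annotated nuclei, and the share outside the neuronal clusters leaves them out. How well each cell type survives the isolation of nuclei was not measured.

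Thra, which encodes TRα1, was read first. It stood at 137, 167, 112 and 129 CPM, so both TRα1+m libraries were below both WT libraries, and it did not pass the test (log2 fold change −0.37, SE 0.18, edgeR adjusted p = 1, or 0.458 with the block). Reads counted per gene do not separate the mutant from the wild-type allele, so this level does not check the labels. Thrb, the second thyroid hormone receptor gene, stood at 333, 305, 306 and 273 CPM and overlapped between genotypes.

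Gene by gene, WT and TRα1+m OPCs were compared on the summed counts of each library. Without a block for the repeat, 0 of 11248 genes tested passed an edgeR adjusted p of 0.05 (0%), 185 were under an unadjusted p of 0.05 (1.64%), and DESeq2 called only Ninj2. The repeat shifted many genes in the same way in both genotypes, and with the repeat as a block 64 genes passed (0.569%), 17 higher (0.151%) and 47 lower (0.418%) in TRα1+m. That fit has 1 residual degree of freedom and takes the spread of every gene from a trend shared by all genes, so its p-values do not rest on the gene's own replicates. DESeq2 with the same block called 2, Ninj2 and AC149090.1. The values of all 4 libraries are therefore given with each gene. Of the 64, 54 had groups that did not overlap (12 higher, 42 lower), and 27.3% of all genes tested did not overlap. The overlap is read from the same library values that gave the calls, so it is a description and no separate support. In 4 of the 64 the repeats went in opposite directions: Malat1, Gm42418 and 9530059O14Rik, counted as higher, and Slc24a2, counted as lower. With the single nucleus richest in each gene left out of each library, 59 of the 64 still passed, and the exceptions were Slit2, Pmch, Kcnc2, Trhde and Col23a1. The words higher and lower in TRα1+m below refer to the blocked fit. The log2 fold changes and SEs are those of the fit without the block, unless stated otherwise.

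Ninj2, which encodes a cell-surface adhesion protein induced in glia after nerve injury, was the clearest difference. It lies on chromosome 6 (120093350 to 120200339, plus strand, GRCm38) and stood at 119 and 102 CPM in WT and 20.4 and 24.3 CPM in TRα1+m. Both TRα1+m libraries were far below both WT libraries, with a log2 fold change of −2.35 (SE 0.24, edgeR adjusted p = 0.0618 without the block and 1.39e-24 with it). By nuclei, 110 of 531 and 99 of 422 held a Ninj2 UMI in WT, against 28 of 679 and 21 of 478 in TRα1+m. At 2000 UMIs per nucleus the shares were 17.3% and 17.3% in WT and 3.81% and 3.95% in TRα1+m, and in neurons 0.593% and 0.442% in WT and 0.281% and 0.170% in TRα1+m. Ninj2 was thus lower by its values in neurons too, as it was in astrocytes, at 7.49, 8.43, 3.75 and 3.05 CPM. The exact permutation p of the unthinned share was 0.33, the smallest possible here.

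Among genes of matrix, adhesion and guidance, the fixed lists gave 3 lower (Vcan, Gpc5 and Lrrtm4) and 2 higher (Col23a1 and Slit2), and other genes with such roles that passed are given beside them. Col11a2, a fibrillar collagen chain, stood at 42.1, 71.9, 7.43 and 16 CPM, with a log2 fold change of −2.34 (SE 0.41). Emid1 stood at 282, 270, 171 and 136 CPM (−0.88, SE 0.20), and Emid1 was at 4.66 CPM or less in oligodendrocytes, astrocytes, microglia and Neurons_1. Vcan stood at 910, 981, 662 and 749 CPM (−0.46, edgeR adjusted p = 0.00194 with the block). In each of these 3 genes both TRα1+m libraries were below both WT libraries. The heparan sulfate proteoglycan Gpc5 stood at 3124, 3101, 2329 and 2339 CPM (−0.45, SE 0.11), so libraries of a genotype lay closer to each other than the genotypes did. In astrocytes Gpc5 was the more abundant and both TRα1+m libraries were again the lower, at 6550, 7110, 4833 and 6246 CPM. The neural adhesion gene Chl1 stood at 118, 145, 67.5 and 60.1 CPM (−1.08), and the contactin gene Cntn3 at 101, 74.9, 51.4 and 49.5 CPM (−0.85). Slit2, a repulsive guidance cue, was higher, at 95.3, 87.0, 146 and 142 CPM (0.62), and so was the transmembrane collagen Col23a1, at 14.8, 5.30, 30.3 and 25.1 CPM (1.41, SE 0.47). Without the nucleus richest in the gene in each library, Col23a1 stood at 10.3, 3.03, 26.6 and 9.89 CPM, so the groups overlapped and the gene no longer passed (adjusted p = 0.0819 with the block), and Slit2, at 85.0, 83.2, 136 and 104 CPM, did not pass either (0.301). Of 23 matrix and proteoglycan genes tested, 2 were lower (Vcan and Gpc5) and 1 higher (Col23a1), with a median log2 fold change of −0.09. Of 40 adhesion and guidance genes, 1 was lower (Lrrtm4) and 1 higher (Slit2), with a median of −0.07, against 0.00 over all genes tested. For both lists, the shares over all genes tested were 0.418% lower and 0.151% higher.

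**Figure D3:**
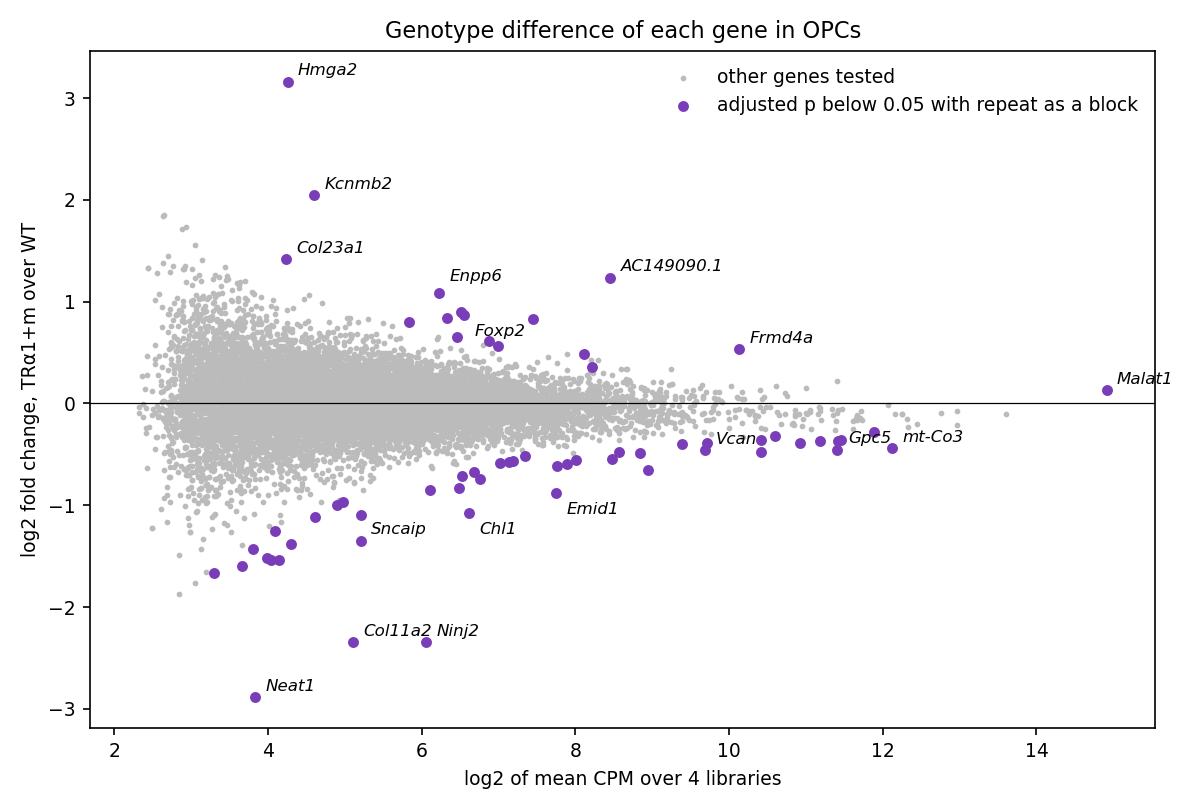
Mean level in OPCs (log2 CPM) against the log2 fold change between TRα1+m and WT for 11248 genes, with the 64 genes that passed with the repeat as a block in purple. Points above 0 are higher in TRα1+m; Ninj2 (−2.35) and Col11a2 (−2.34) lie far below 0 and Hmga2 (3.16) far above.

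Genes of the committed precursor list gave 3 calls, all higher in TRα1+m, of which Enpp6 had the smallest p. It stood at 38.4, 56.0, 80.4 and 125.5 CPM (log2 fold change 1.08, SE 0.27, edgeR adjusted p = 9.25e-06 with the block), so both TRα1+m libraries exceeded both WT libraries. By nuclei, 3.01% and 3.32% held an Enpp6 UMI in WT and 4.42% and 5.23% in TRα1+m, and at 2000 UMIs the shares were 3.01%, 3.10%, 5.24% and 6.58%. In neurons the unthinned share was 0.648% to 0.926%, and in oligodendrocytes it was 9.69% and 16.98% in WT and 13.1% and 22.5% in TRα1+m. Enpp6 passed with the block in oligodendrocytes too (edgeR adjusted p = 0.0226), and its effect was not shown to differ between the cell types (interaction adjusted p = 0.697). The OPC nuclei with several mature oligodendrocyte markers, described above, numbered 22 and 16 in WT and 17 and 18 in TRα1+m. The transcription factor Tcf7l2, needed for oligodendrocyte maturation, stood at 310, 140, 418 and 234 CPM (0.49, adjusted p = 0.0189 with the block). The groups overlapped for Tcf7l2, since repeat 1 was the higher in both genotypes, and TRα1+m was the higher within each repeat. 9630013A20Rik passed as well, but its values of 396, 115, 397 and 281 CPM were level in repeat 1. With 1 library left out the log2 fold change of Tcf7l2 ran from −0.0315 to 1.23 and that of 9630013A20Rik from −0.30 to 1.57, and in nuclei with Pdgfra or Cspg4 alone that of 9630013A20Rik was −0.0035. These were 3 of 14 genes of the committed precursor list, whose median log2 fold change was 0.21, where 0.151% of all genes tested were higher. Gpr17 itself stood at 130, 412, 166 and 432 CPM and Bcas1 at 478, 411, 431 and 590 CPM, and both overlapped. Fyn stood at 356, 313, 418 and 454 CPM, higher in both TRα1+m libraries without passing (0.34).

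The precursor identity and mature myelin genes were mostly level. Of 16 OPC identity genes, 2 were lower (Vcan and Cacng4) and none higher, with a median of −0.04. Among all genes tested, 0.418% were lower and 0.151% higher. Cacng4, an auxiliary subunit of AMPA receptors, stood at 368, 465, 243 and 342 CPM (−0.55, adjusted p = 0.0028 with the block), and TRα1+m was lower in both repeats. Of 17 mature oligodendrocyte genes 0 passed (median 0.07). Of 27 lineage transcription factors, Tcf7l2 was higher and Nkx6-2, a homeobox factor of the lineage, was lower at 14.8, 31.8, 6.81 and 9.89 CPM (−1.51). For Nkx6-2 both TRα1+m libraries were below both WT libraries in the other 4 clusters compared as well, at 55.7, 62.2, 17.4 and 26.8 CPM in astrocytes and 55.9, 65.6, 35.8 and 51.9 CPM in oligodendrocytes. Olig1 stood at 76.8, 233, 80.4 and 223 CPM and Sox10 at 232, 112, 233 and 135 CPM, so both followed the repeat and not the genotype. Of 14 cell-cycle genes tested 0 passed (median 0.12).

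The thyroid hormone genes gave 1 call. Of 10 receptor and cofactor genes tested 0 passed (median −0.10), and of 5 transport and metabolism genes 0 passed (median −0.15), while the deiodinase genes Dio1 and Dio3 were at 0 UMIs in OPCs of all libraries. Of 9 genes known to respond to thyroid hormone in other settings, Enpp6 was higher and the others did not pass. Their median was −0.31, and 0.151% of all genes tested were higher. Klf9, the best known direct target of the hormone in brain, stood at 56.2, 49.2, 44.6 and 35.8 CPM. Both TRα1+m libraries were below both WT libraries for Klf9, but it did not pass (−0.42, SE 0.26, edgeR adjusted p = 1).

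Of 32 transmitter receptor genes, 2 were lower and none higher, where 0.418% of all genes tested were lower: Cacng4 and the metabotropic glutamate receptor Grm5, at 1563, 1479, 1243 and 1187 CPM (−0.36). The median of the list was −0.05. Of 27 voltage-gated and inward-rectifier channel genes 0 passed, but in 15 both TRα1+m libraries were below both WT libraries, and in 0 were both above, where the shares over all genes tested were 11.1% and 16.3%. The list does not hold Kcnc2, a voltage-gated channel gene described below for which both were above. Their median log2 fold change was −0.18, and the largest were those of Hcn2 (−0.56), the T-type calcium channel Cacna1g (−0.53) and the potassium channel Kcna1 (−0.52). The neuronal markers measured in the same nuclei had a median of −0.20, and their part in these values was not tested. Kcnn2, a calcium-activated potassium channel outside that list, passed at 132, 135, 81.7 and 82.2 CPM (−0.75). Both TRα1+m libraries were also the lower for Kcnn2 in astrocytes (348, 338, 280.3 and 294 CPM) and neurons (221, 217, 179.9 and 185 CPM). The channel subunit gene Kcnmb2 was higher, at 13.3, 5.30, 56.3 and 22.1 CPM (2.04), and so was Kcnc2, at 77.6, 56.8, 106 and 111 CPM, although Kcnc2 did not pass without the nucleus richest in it (adjusted p = 0.0632 with the block).

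Other genes with a small p had varied roles. Chn1, a Rac GTPase-activating protein, stood at 115, 113, 64.4 and 67.0 CPM (−0.84), Sncaip, the synphilin gene, at 50.2, 55.2, 20.4 and 22.1 CPM (−1.35), and Rapgef4, a cAMP-activated exchange factor, at 108, 120, 65.0 and 77.6 CPM (−0.71). In all 3 the genotypes did not overlap. Chn1 was lower by its values in TRα1+m in the other clusters as well, at 78.7, 79.6, 41.8 and 42.0 CPM in oligodendrocytes and 165, 164, 124 and 135 CPM in neurons. The zinc-finger factor Zbtb20 stood at 1643, 1496, 1230 and 1081 CPM in OPCs and at 1344, 1202, 695 and 668 CPM in oligodendrocytes, and was lower in both TRα1+m libraries in all 5 clusters compared. Lrmda stood at 293, 272, 179 and 208 CPM in OPCs, Lbh at 40.6, 41.6, 19.8 and 23.6 CPM, and Trhde, an enzyme that degrades thyrotropin-releasing hormone, at 28.8, 37.8, 14.9 and 16.7 CPM. Without the nucleus richest in it Trhde no longer passed (adjusted p = 0.0678 with the block). Both TRα1+m libraries were also the lower for Trhde in astrocytes (62.0, 81.3, 36.2 and 33.3 CPM), and the genotypes overlapped in the other clusters compared. The transcription factor Foxp2 was higher at 77.6, 53.0, 138 and 107 CPM (0.87). In astrocytes (28.7, 26.4, 44.6 and 37.1 CPM) and in microglia and macrophages (117, 140, 243 and 152 CPM) both TRα1+m libraries were also the higher. In oligodendrocytes and neurons Foxp2 overlapped between genotypes. Bcl7a stood at 31.0, 34.1, 58.2 and 57.1 CPM (0.79) without passing.

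Hmga2, a chromatin protein of embryonic and proliferating cells, had the largest rise. It was counted 6 and 4 times in the OPCs of the WT libraries and 77 and 28 times in those of the TRα1+m libraries, or 4.43, 3.03, 47.6 and 21.3 CPM (log2 fold change 3.16, SE 0.56). Nuclei with an Hmga2 UMI numbered 6, 4, 64 and 25, and at 2000 UMIs their shares were 1.1%, 0.775%, 9.76% and 3.16%, against 0.124% to 0.291% in neurons. The share in TRα1+m library 1 was above that in library 2, and both were above WT. In the other main clusters tested Hmga2 was at 4.86 CPM or less. Which of the 3 pooled mice the Hmga2 transcripts came from cannot be told apart.

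**Figure D4:**
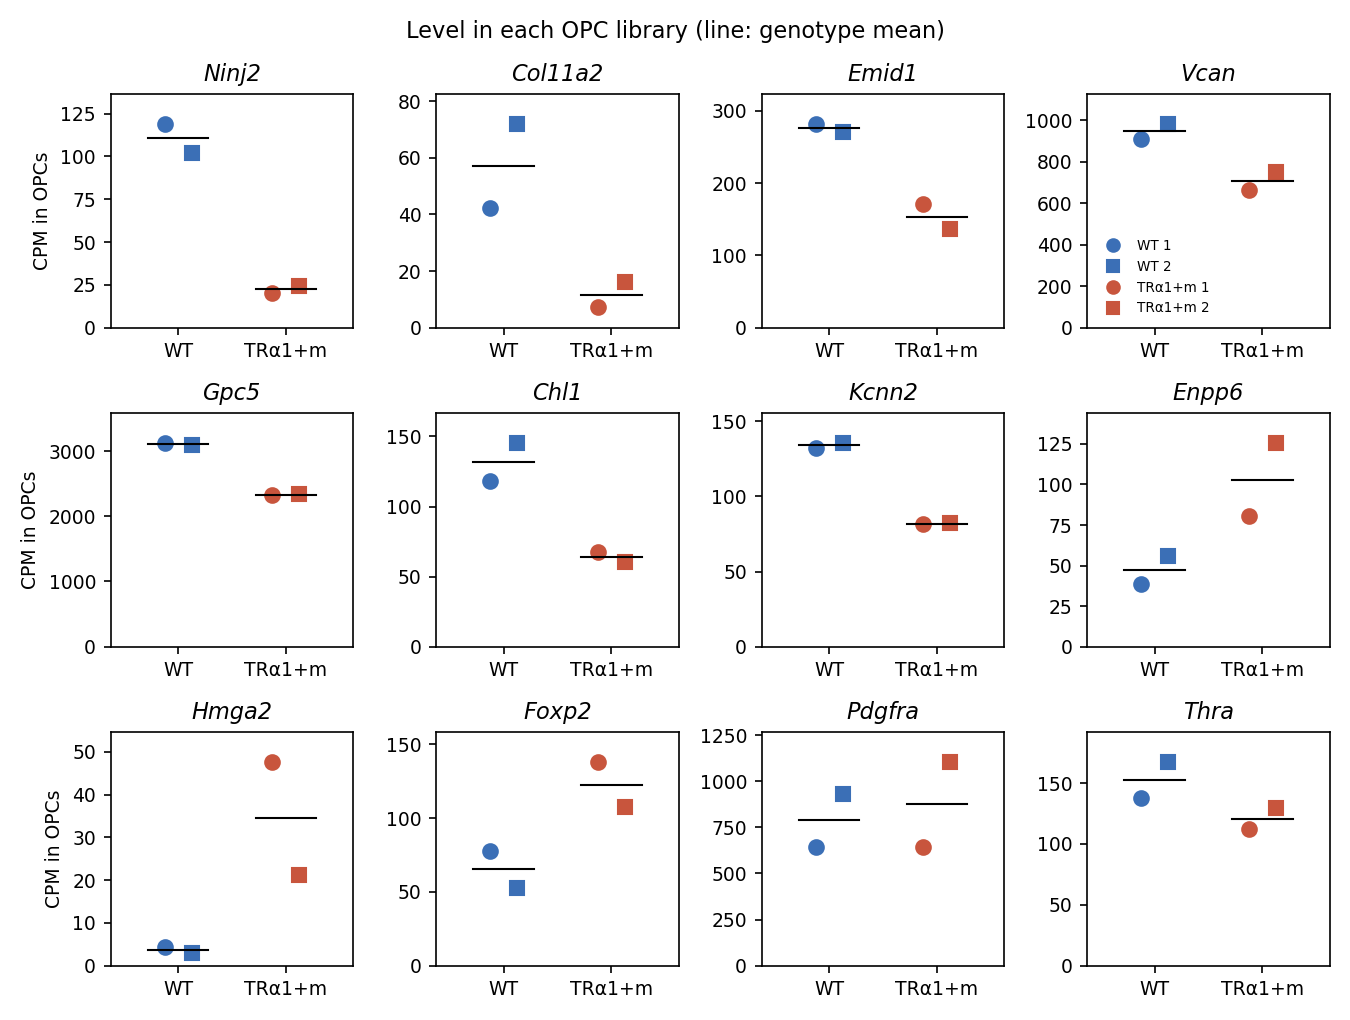
Levels in OPCs (CPM) of 12 genes in each library, WT in blue and TRα1+m in red, circles for repeat 1, squares for repeat 2, and a line at each genotype's mean. Ninj2, Col11a2, Emid1, Vcan, Gpc5, Chl1 and Kcnn2 are lower and Enpp6, Hmga2 and Foxp2 are higher in both TRα1+m libraries, whereas Pdgfra follows the repeat.

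Some of the genes that passed went the same way in other clusters, are held by many clusters or belong to other cells. Ninj2, Col11a2, Vcan, Nkx6-2, Chchd10, Scd1, Neat1, Chn1 and Zbtb20 were lower by their values in TRα1+m within each repeat in all 5 main clusters compared. Among these, Vcan was mainly a gene of OPCs, with a mean of 825 CPM against 48.8 CPM in the next cluster, the astrocytes. Of 13 mitochondrially encoded genes 6 were lower and none higher, where 0.418% of all genes tested were lower. Their median log2 fold change was −0.37, and among the 6 mt-Co1 and mt-Atp6 overlapped between genotypes. mt-Co3 stood at 4764, 5429, 4233 and 3454 CPM, and the median share of mitochondrial UMIs in OPC nuclei was 1.59%, 1.78%, 1.45% and 1.31%. Mitochondrial transcripts are not made in the nucleus, and their part in other results was not tested. The neuropeptide genes Pmch (575, 618, 490 and 281 CPM) and Oxt (524, 84.8, 360 and 65.4 CPM) passed as lower, and Oxt separated the repeats more than the genotypes. Without the nucleus richest in Pmch in each library, Pmch stood at 423, 362, 484 and 256 CPM, so the groups overlapped and it did not pass (adjusted p = 0.808 with the block). Fabp7, a fatty acid binding protein of glial progenitors, was higher at 64.3, 61.3, 158 and 79.9 CPM, but it was at similar levels, and higher by its values within each repeat, in oligodendrocytes (84.9, 59.0, 180 and 77.2 CPM) and astrocytes (89.2, 67.1, 198 and 112 CPM). AC149090.1, higher at 236, 174, 620 and 370 CPM (1.24), was higher by its values in TRα1+m within each repeat in all 5 main clusters compared. It lies on an unplaced scaffold and is uncertain, since near-identical copies may share its reads. Neat1, a nuclear long non-coding RNA, was lower at 28.1, 21.9, 3.71 and 3.04 CPM (−2.88) and was counted 6 and 4 times in the TRα1+m libraries. In oligodendrocytes Neat1 stood at 602, 688, 150 and 251 CPM. None of the 9 neuronal, 8 astrocyte, 4 tanycyte or 7 microglial markers tested in OPCs passed, and their medians were −0.20, 0.28, 0.04 and 0.13.

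The remaining lists gave few calls, where 0.418% of all genes tested were lower and 0.151% higher. Of 22 cholesterol and lipid genes, the desaturase Scd1 was lower at 36.9, 42.4, 24.1 and 16 CPM (edgeR adjusted p = 0.0398 with the block) and AC149090.1 was higher, with a median of −0.19. Of 28 growth factor signalling genes 0 passed (median 0.00), and Pdgfra did not differ beyond its spread between repeats (0.11, SE 0.27). Of 17 genes of Wnt and BMP signalling, Tcf7l2 was higher (median 0.07). Of 18 clock genes (median −0.15), 8 glucocorticoid-responsive genes (0.09) and 3 immediate-early genes (0.05) 0 passed. Among 19 genes that the study itself named, on these same samples, 4 were lower (Lrrtm4, mt-Atp6, mt-Co3 and Oxt) and AC149090.1 was higher. That list is not independent evidence of a direction.

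Oligodendrocytes, the cells into which OPCs mature, were taken from the same 4 libraries (6135 nuclei), and the genotype effect in OPCs was tested against that in oligodendrocytes. The effects differed for 53 of 13152 genes (0.403%, edgeR interaction test with a term for the library), and 771 genes were under an unadjusted p of 0.05. With the repeat as a block, 550 genes passed in oligodendrocytes. Both cell types come from the same 4 libraries, so no count of calls common to both is given as a result. In 51 of the 53 the effect was the larger in oligodendrocytes, in 1 (Ninj2) it was the larger in OPCs, and 1 was not tested in OPCs alone. The absolute log2 fold change of these genes had a median of 0.12 in OPCs and 1.69 in oligodendrocytes. In 45 of the 53 the log2 fold change in OPCs was under 0.5 in size. The count was 3 without the library term, 23 by DESeq2, 127 without the filter on low counts and 263 with the repeat as a block (2%).

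Tmem117, a membrane protein gene, stood at 198.8, 211, 156 and 192 CPM in OPCs and at 290, 370, 26.6 and 33.3 CPM in oligodendrocytes. In OPCs both TRα1+m libraries were slightly below both WT libraries, in oligodendrocytes they were far below, and the effects differed by 3.08 on the log2 scale (SE 0.20, edgeR adjusted p = 2.21e-06). Dpyd, which degrades pyrimidines, stood at 893, 880, 838 and 884 CPM in OPCs and at 272, 366, 36.6 and 41.2 CPM in oligodendrocytes (difference 2.85, SE 0.22, adjusted p = 1.24e-05). Slco3a1, an organic anion transporter that can carry thyroid hormone, stood at 99.0, 98.4, 76.7 and 73.8 CPM in OPCs and 241, 263, 40.7 and 42.0 CPM in oligodendrocytes (difference 2.09, adjusted p = 0.000157). Pcolce2, a procollagen processing enhancer, had the largest difference, 4.50 (SE 0.43), with log2 fold changes of −0.33 in OPCs and −4.88 in oligodendrocytes. In the other direction, Ddc, the aromatic amino acid decarboxylase, stood at 18.5, 10.6, 18.6 and 13.7 CPM in OPCs and at 48.6, 47.5, 234 and 259 CPM in oligodendrocytes (difference −2.31, adjusted p = 0.0102). Col23a1 had log2 fold changes of 1.41 in OPCs, where 1 nucleus of TRα1+m library 2 held 20 of its 33 UMIs, and 3.94 in oligodendrocytes (difference −2.51, adjusted p = 0.0245). Ninj2 was lower in both, by values of 395, 382, 170 and 223 CPM in oligodendrocytes, and its log2 fold change of −2.35 in OPCs and −0.92 in oligodendrocytes differed by −1.44 (SE 0.22, adjusted p = 0.00651).

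**Figure D5:**
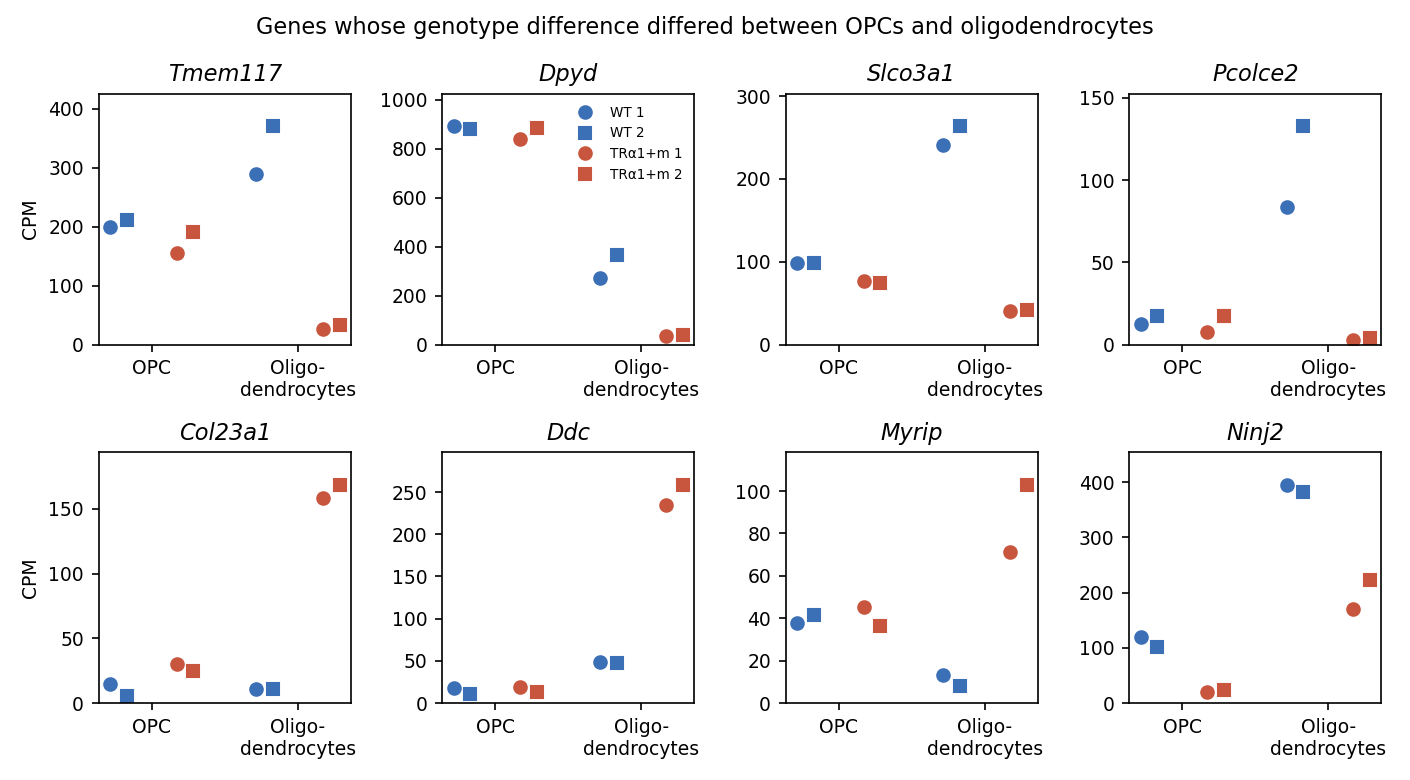
Levels (CPM) of 8 genes in OPCs and in oligodendrocytes (OL) in each library, WT in blue and TRα1+m in red, circles for repeat 1 and squares for repeat 2. Tmem117, Dpyd, Slco3a1 and Pcolce2 are lower in TRα1+m oligodendrocytes and change less in OPCs, whereas Ninj2 is lower in both.

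The experimental repeat set OPCs apart more than the genotype did. With the genotype in the model, 1283 of 11248 genes (11.4%) differed between repeats. In repeat 2, 644 were higher (5.73%) and 639 lower (5.68%), whereas DESeq2 called 123. The edgeR model is that of the blocked genotype fit, with 1 residual degree of freedom. Its p-values for the repeat likewise do not rest on the gene's own replicates. The tetraspanin Cd9 stood at 265, 1145, 213 and 1067 CPM (log2 difference of repeat 2 from repeat 1 of 2.14), G0s2 at 17.7, 91.6, 18.6 and 82.9 CPM (2.18) and the plasmolipin gene Pllp at 55.4, 241, 50.7 and 248 CPM (2.13). In these 3 genes both libraries of repeat 2 were above both libraries of repeat 1. The metallothionein Mt3 fell from 480 and 588 CPM in repeat 1 to 111 and 67.0 CPM in repeat 2 (−2.67). Of 16 OPC identity genes 8 were higher in repeat 2 and none lower, among them Cspg5 at 632, 1552, 611 and 1819 CPM and C1ql1 at 93.8, 328, 118 and 358 CPM. Of 11 neuropeptide genes 10 were lower in repeat 2, with a median log2 difference of −1.31, and 4 of 8 astrocyte markers were lower. Depth per nucleus and neuropeptide transcripts moved with the repeat, and their part in these differences cannot be told apart from it.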

How the data were processed

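Per the labels and the methods of the study, the authors aligned 10x Genomics reads to mm10 with Cell Ranger 5.0.1 and deposited filtered matrices of UMI counts per gene and barcode, not normalized. They kept nuclei with at least 900 counts, 700 genes, at most 5% mitochondrial counts and a doublet score under 0.18, and annotated clusters with Seurat; this annotation was used as deposited, with no further doublet removal. Counts of OPCs were summed per library (n = 2 per genotype) and tested with edgeR 4.0.16 in R 4.3.3 (filterByExpr, TMM, robust quasi-likelihood F-test, Benjamini-Hochberg adjustment over all genes tested, threshold 0.05, two-sided). DESeq2 1.42.0 was an alternative. The matched pairs come from the experimental repeats, each of which held both genotypes. The difference between repeats correlated between genotypes across 7489 genes (Pearson r 0.594), so the repeat was also fitted as a block.

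Named genes are up to 20 not past the threshold with the smallest p and mean CPM of at least 20, the genes of fixed lists and the leading OPC genes. Genes that passed only with the block were named after their values were seen. Members and lists were chosen with earlier results of these data known. Libraries are pools, so p-values of the fits without the block measure the spread between pools, which edgeR shares in part across genes. The genotype fit with the block and the repeat fit leave 1 residual degree of freedom. Their p-values rest on a trend over all genes and not on each gene's own pools. No test used cells as replicates. Binomial intervals are exact (Clopper-Pearson, 95%), take nuclei as trials and do not cover the spread between libraries. Scripts were tested on simulated data. Of 441 listed genes all were found, and a few are not reported here.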

Additional observations from a re-analysis of the deposited data

Results flagged for a closer look

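The effect of the genotype differed between OPCs and oligodendrocytes for 53 genes, each by an edgeR interaction test at an adjusted p under 0.05. The genes listed here are only some of these 53. The values are the log2 fold change in OPCs minus that in oligodendrocytes. They were 4.50 for Pcolce2, 3.08 for Tmem117, 2.85 for Dpyd, 2.60 for Hcn2, 2.57 for Abca6 and 2.09 for Slco3a1, genes with a lower level in TRα1+m oligodendrocytes than in WT. They were −3.15 for Fmnl3, −3.09 for Myrip, −2.78 for Arhgap15, −2.51 for Col23a1 and −2.31 for Ddc, genes with a higher level in TRα1+m oligodendrocytes. Ninj2, at −1.44, was lower in both cell types. Both cell types were drawn from the same libraries. Without each library in turn the count was 45 to 87.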

How the results depend on the processing

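Against 0 genes between genotypes in OPCs, DESeq2 gave 1, no filter on low counts 11, nuclei with Pdgfra or Cspg4 alone 1, leaving out the nucleus richest in each gene 1 and the replicate block 64. Leaving out 1 library gave 1 to 8 genes, and the lone library of a genotype is then assumed to vary like the others. Settings chosen after seeing the data added to the block the bias-adjusted fit (56 genes), DESeq2 (2), equal numbers of nuclei (42), Pdgfra or Cspg4 nuclei alone (53), no filter (50), leaving out the nucleus richest in each gene (60) and a log2 fold change above 0.5 (48). Of these, 38 of the 42, 49 of the 53, 47 of the 50 and 59 of the 60 were among the 64. RLE size factors, equal nuclei, the bias-adjusted fit and a log2 fold change above 0.5 gave 0 without the block. The block leaves 1 residual degree of freedom and an infinite prior.

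The repeat count of 1283 was 123 by DESeq2 and 523 to 1213 with 1 library left out (523 without TRα1+m library 1, 603 without WT library 1 and 767 without TRα1+m library 2). The 53 differences between OPCs and oligodendrocytes were 3 without the library term, 23 by DESeq2, 127 without the filter, 263 with the block and 45 to 87 with 1 library left out (87 without TRα1+m library 1). The cause was not tested for these counts. The share of OPCs stayed short of the threshold in every setting, with log2 fold changes of 0.16 to 0.36.

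The genotype difference in the share of nuclei with Gpr17 (1.76 percentage points) was −0.331 at 2 or more UMIs and −15.1 to 18.6 with 1 library left out, and that of cycling nuclei (0.588) was −0.09 to 1.27. Over 77 named genes and 1463 alternatives, 30 alternatives in 11 genes turned the direction, 5 of them among the 64. With 1 library left out the log2 fold change ran from −0.33 to 0.80 for Malat1, −0.61 to 1.55 for Gm42418, −0.30 to 1.57 for 9630013A20Rik, −0.0315 to 1.23 for Tcf7l2, −2.31 to 1.36 for Oxt, −0.13 to 0.29 for Grm8, −0.41 to 0.22 for Cnp, −0.15 to 0.54 for Cldn11, −0.67 to 0.38 for Arsg, −0.81 to 0.68 for Olig2 and −0.44 to 0.73 for Sox10. With Pdgfra or Cspg4 nuclei alone it was −0.0035 for 9630013A20Rik, −0.0587 for Cldn11 and −0.0067 for Sox10, and with the block added −0.0038 for 9630013A20Rik and −0.0568 for Cldn11. With equal nuclei it was 0.0004 for Cnp and −0.0567 for Sox10, and with the block added 0.0001 for Cnp, 0.0161 for Arsg and −0.0112 for Sox10. Without the nucleus richest in the gene it was −0.1363 for Grm8, or −0.1385 with the block.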

Other observations

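In OPCs, 49 of 86 ribosomal protein genes (symbols starting with Rps or Rpl, a group chosen after seeing the data) were lower in repeat 2 and 5 were higher, with a median log2 difference of −0.65 (edgeR, adjusted p under 0.05). By the same test, 5.68% of all genes tested were lower and 5.73% higher in repeat 2. The sodium pump regulator Fxyd1 stood at 33.2, 8.32, 49.5 and 4.57 CPM in WT 1, WT 2, TRα1+m 1 and TRα1+m 2, and the small nucleolar host gene Snhg9 at 45.1, 9.08, 47.6 and 7.61 CPM. Both were lower in both libraries of repeat 2. The Wnt receptor Fzd9 (15.5, 58.3, 11.1 and 61.6 CPM) and the cobalamin uptake receptor Cd320 (5.91, 33.3, 9.90 and 36.5 CPM) were higher there.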
